A study of Pan paniscus with 11 samples.

Results

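The basement membrane collagens and laminins described here were 7 genes, COL4A1, COL4A2, COL15A1, LAMA2, LAMA4, LAMB1 and LAMC1, chosen by name. Earlier results of these data were known when the genes were chosen. The 7 genes were found in the probe annotation through their gene symbols. Each had 1 probe set, which gave 7 of the 12558 probe sets that were not controls. All 7 probe sets read above the floor of 100, the lowest value kept, in all 11 cultures, so none was lost to the filter on dim probe sets. Because a gene had 1 probe set, no member could be checked against another probe set of its own.

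Cultured fibroblasts of bonobos (Pan paniscus) were profiled on an Affymetrix human array, with 1 array per culture. The first group was a single culture of male line 1, from a male aged 4 years, harvested at 50% confluence. The 5 male lines, numbered 1 to 5, were from donors of 4, 2, 12, 17 and 19 years and were grown and harvested under the study's standard conditions. The 5 female lines, also numbered 1 to 5, were from donors of 9, 2, 4, 20 and 20 years and were treated in the same way. All animals were labelled normal, and the labels name no treatment or engineered allele in any group. The labels give neither the tissue site of the fibroblasts nor the passage number, nor the confluence at which the standard cultures were harvested. Each line is 1 culture of 1 animal. The spread between lines therefore joins the difference between animals with that between cultures and arrays.

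Basement membranes are thin sheets of extracellular matrix that separate cells from connective tissue and that surround muscle, fat and nerve cells. Laminins, trimers of an alpha, a beta and a gamma chain, assemble a first network at the cell surface, and a second network of collagen IV gives the sheet its strength. Nidogens and the heparan sulfate proteoglycan perlecan tie these networks together. Fibroblasts are known to secrete collagen IV, nidogens and several laminin chains, together with collagen XV, which lies at the outer face of basement membranes.

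The cultures read as fibroblasts. VIM, COL1A2, PDGFRA, THY1 and the rest of the 13 fibroblast markers measured exceeded the floor in all 11 cultures. Endothelial cells, a main source of basement membrane in vessels, left little signal. None of the 9 endothelial markers was above the floor in all 11 cultures, and CLDN5 and SELE were above it in none. FLT1 was above it in 10 of 11, reaching 301. The summed intensity of the list was 900 to 1106 in male lines and 926 to 1106 in female lines, against 900 for a list wholly at the floor. Smooth muscle and pericyte markers varied more, with sums of 11874 to 61126 in male lines and 23744 to 40025 in female lines. Of the 11 measured, SMTN, NOTCH3, ACTA2 and TAGLN were above the floor in all 11 cultures. ACTA2 reached 21614 and TAGLN 32430 in male line 5. The smooth muscle filament gene DES was above the floor in none. Over the 10 standard lines, MYH11 ran from the floor to 6163 in female line 1 and was above the floor in 7. CNN1 was above it in 7 of these lines (up to 1033), LMOD1 in 9 (up to 823) and CSPG4 in 9 (up to 1378). ACTG2 and RGS5 were above it on at most 4 and 2 of 11 arrays. Keratinocyte and epithelial, Schwann and melanocyte, and blood markers had median intensities of 103, 100 and 100. Single genes of these lists were nevertheless above the floor in all 11 cultures. They were KRT10 and SFN (up to 703 and 925), ERBB3 (up to 482), and CD68 and CD3E (up to 703 and 290). Array quality differed, since the ribosomal RNA controls gave 1508 to 2611 on the array of the 50% confluence culture and 146 to 313 on that of male line 4, against 100 to 171 elsewhere. The ratio of the ACTB 3' probe set to its 5' probe set, a sign of RNA integrity, was 0.669 in the 50% confluence culture and 2.27 in male line 4, while the remaining standard lines lay between 0.853 and 1.44.

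COL4A1 and COL4A2 encode the alpha 1 and alpha 2 chains of collagen IV, which form the trimer found in nearly all basement membranes. They are neighbours in the bonobo gene table, and in human and mouse they are known to lie head to head with a shared promoter. COL4A1 (Entrez Gene 1282) had intensities of 2491, 732, 382, 433 and 3315 in male lines 1 to 5, against 252, 1974, 1053, 894 and 2391 in female lines 1 to 5. Male lines 5 and 1 and female lines 5 and 2 were the high ones, and female line 1 and male lines 3 and 4 the low ones, so both sexes spanned the range. COL4A2 (Entrez Gene 1284) had 5943, 1835, 2481, 819 and 7140 in male lines 1 to 5, against 1230, 3702, 1617, 2364 and 5206 in female lines 1 to 5. The first 4 lines in order were the same as for COL4A1, and the lowest was male line 4 in place of female line 1. The highest line was 13.2-fold above the lowest for COL4A1 and 8.72-fold for COL4A2. In RNA from whole cultures, fewer cells of a type and less RNA per cell cannot be told apart.

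COL15A1 encodes the chain of collagen XV, a collagen and proteoglycan that bridges basement membranes to neighbouring collagen fibrils. COL15A1 (Entrez Gene 1306) had intensities of 4215, 560, 1277, 2171 and 465 in male lines 1 to 5, against 264, 3226, 3092, 1234 and 344 in female lines 1 to 5. Male line 1 and female lines 2 and 3 were high, and female lines 1 and 5 and male lines 5 and 2 were low. The highest line was 16.0-fold above the lowest. Male line 1 was high in COL15A1 and in both collagen IV chains, but male line 5, the highest line for collagen IV, was among the lowest for COL15A1.

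LAMA2 and LAMA4 encode alternative laminin alpha chains. The alpha 2 chain is the main one around skeletal muscle fibres and Schwann cells, and its loss in humans causes a congenital muscular dystrophy. LAMA2 (Entrez Gene 3908) had intensities of 998, 895, 824, 507 and 1406 in male lines 1 to 5, against 2119, 545, 426, 637 and 630 in female lines 1 to 5. Female line 1 stood above all other lines, and the other female lines lay below every male line but male line 4. The alpha 4 chain is typical of vessel walls and other tissues of mesenchymal origin. LAMA4 (Entrez Gene 3910) had 364, 569, 397, 749 and 190 in male lines 1 to 5, against 391, 513, 403, 600 and 220 in female lines 1 to 5. Both sexes held low and high lines, and the lowest lines, male line 5 and female line 5, were among the highest for collagen IV.

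LAMB1 and LAMC1 encode the beta 1 and gamma 1 chains, which are shared by most laminins. LAMB1 (Entrez Gene 3912) had intensities of 414, 369, 280, 591 and 279 in male lines 1 to 5, against 345, 218, 366, 405 and 347 in female lines 1 to 5. Apart from male line 4, the highest, and female line 2, the lowest, the lines lay between 279 and 414. LAMC1 (Entrez Gene 3915) had 2541, 1886, 1341, 2444 and 1713 in male lines 1 to 5, against 3296, 2322, 2306, 2864 and 3211 in female lines 1 to 5. The female lines were in the upper part of the range, and male lines 1 and 4 overlapped them. With 1 culture per line, neighbouring lines in any of these orders cannot be said to differ, since no spread within a line was measured.

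**Figure D1:**
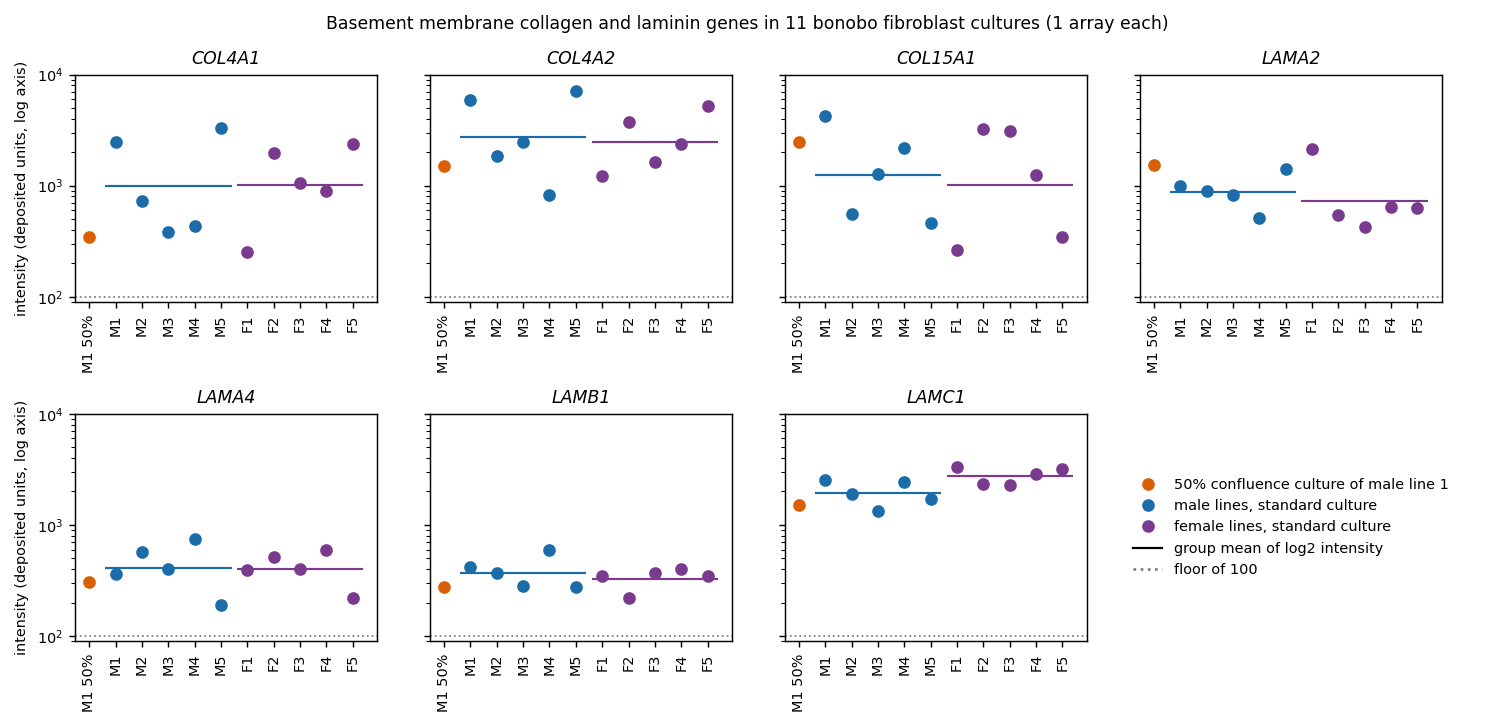
Intensity of each gene in the 11 cultures on a log axis, with 1 point per array: the 50% confluence culture of male line 1 (orange), male lines M1 to M5 (blue) and female lines F1 to F5 (purple). Horizontal lines are group means of log2 intensity and the dotted line is the floor of 100; the collagens spread widely within both sexes, while LAMB1 and LAMC1 lie within narrow bands.

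The collagens had larger SDs between lines than the laminins. The SD of log2 intensity over the 10 standard lines was 1.45 for COL15A1, 1.28 for COL4A1 and 1.03 for COL4A2. It was 0.71 for LAMA2, 0.62 for LAMA4, 0.41 for LAMC1 and 0.39 for LAMB1. Over 5370 named genes tested, the median SD was 0.43, so the beta 1 and gamma 1 chains lay just below the middle of all genes and the 3 collagens among the most variable. COL15A1 ranked 12th, COL4A1 35th and COL4A2 109th from the top. The median SD of the 7 genes was 0.71. This spread was not tested against that of other genes, and the 7 were chosen with earlier results of these data known. Wide differences also stood between animals of the same age. The females of 20 years, lines 4 and 5, read 1234 and 344 for COL15A1, a 3.59-fold difference. At 2 years, male line 2 and female line 2 read 560 and 3226 for COL15A1 and 732 and 1974 for COL4A1. At 4 years, male line 1 and female line 3 read 5943 and 1617 for COL4A2, but 2541 and 2306 for LAMC1.

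Male and female lines were compared first, with age as a covariate. None of the 7 genes passed with limma at an adjusted p of 0.05, where 0.0273% of all 7333 probe sets tested did, and 1 of the 7 had an unadjusted p under 0.05, as did 2.33% of all. That gene was LAMC1. It averaged 1985 ± 505 in male lines and 2800 ± 472 in female lines (SD, n = 5 each), a log2 difference of -0.52 ± 0.22 (SE, male minus female), with a limma adjusted p of 0.9999 and thus no call. LAMC1 ranked 107th of 7333 probe sets by p. The count of members with an unadjusted p under 0.05 was 0 without an intensity trend, and 0 when female line 5 or male line 2, 3 or 5 was left out. The other estimates were small beside their errors. They were -0.03 ± 0.66 for COL4A1, 0.16 ± 0.53 for COL4A2 and 0.27 ± 0.67 for COL15A1. For the laminin chains they were 0.28 ± 0.39 for LAMA2, 0.02 ± 0.37 for LAMA4 and 0.18 ± 0.29 for LAMB1. The 95% confidence intervals of the collagens were broad. For COL4A1 the male level could lie between 0.367 and 2.61 times the female level, and for COL15A1 between 0.446 and 3.28 times. For LAMB1 the interval was 0.73 to 1.75 times. The median estimate of the 7 genes was 0.16, against 0.00 for all probe sets. The directions of COL15A1 and LAMA4 changed with array weights, where COL15A1 stood at -0.13 and LAMA4 at -0.12, and those of both genes, COL4A1 and COL4A2 changed when single lines were left out.

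The slope of each gene on donor age was estimated next, with sex as a covariate. None of the 7 passed with limma, 0 had an unadjusted p under 0.05, and the background was 0.0% of 7333 probe sets by adjusted p and 3.42% by unadjusted p. With array weights, without female line 1 and without male line 2, 1 member had an unadjusted p under 0.05 and none passed. The farthest from 0 was COL15A1, with -0.80 ± 0.46 log2 per 10 years (SE, limma adjusted p = 0.9987) and a 95% confidence interval of -1.79 to 0.19. Its estimate stayed negative in all 9 other settings and without any 1 line, from -1.28 to -0.56. The lines do not fall in order of age, however. Male line 2, aged 2 years, read 560, whereas male line 4, aged 17 years, read 2171, and female line 1, aged 9 years, was the lowest of all at 264. The slopes of the others were 0.09 ± 0.46 for COL4A1, 0.15 ± 0.37 for COL4A2, 0.03 ± 0.27 for LAMA2 and -0.24 ± 0.25 for LAMA4. Those of LAMB1 (0.13 ± 0.20) and LAMC1 (0.07 ± 0.15) had the narrowest errors, and the interval of LAMC1 ran from -0.25 to 0.39 log2 per 10 years.

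The age slope was also compared between the sexes. None of the 7 genes passed, with a lowest limma adjusted p of 0.9784 and 0 unadjusted p under 0.05, against 0.0136% of 7333 probe sets called and 4.84% with an unadjusted p under 0.05. The male slope minus the female slope ran from -0.44 ± 0.76 (SE) log2 per 10 years for COL4A2 to 0.78 ± 0.94 for COL15A1. Of the partner genes described further on, none passed with limma in any of these 3 fits. Unadjusted p-values under 0.05 were found for age in 1 of 2 other basement membrane collagens, 1 of 10 receptors and 1 of 10 folding genes, for the slope difference in 3 of 8 breakdown genes, and for sex in 0 of them.

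**Figure D2:**
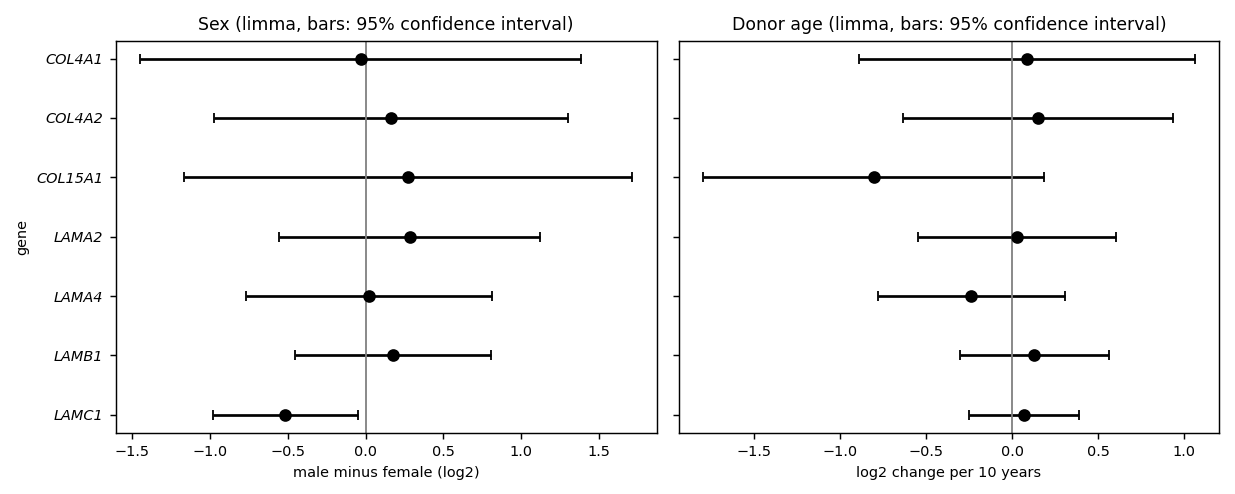
Left, log2 difference male minus female; right, log2 change per 10 years of age; each point is the limma estimate for 1 gene over the 10 standard lines and each bar its 95% confidence interval. The interval of LAMC1 for sex lies below 0 but the gene did not pass after adjustment, and the intervals of the collagens are the widest.

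Both collagen IV genes went up and down together across lines. Over the 10 standard lines, the log2 intensities of COL4A1 and COL4A2 had a Pearson r of 0.87 and a Spearman rho of 0.82. Among the 5369 other named genes, COL4A2 ranked 8th by its r with COL4A1, and COL4A1 ranked 15th by its r with COL4A2. Without female line 1 and male line 5, the lines farthest from the median of COL4A1, r was 0.81, and without male line 4 it was 0.87. The points are 1 array per line on 1 array type and share the authors' scaling, and these correlations are given as a description. The log2 difference between both genes still varied with an SD of 0.64 over the lines. It was lowest in male line 3, at -1.33 relative to its mean, where COL4A2 was in the middle of the lines and COL4A1 near the bottom.

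The other members did not follow collagen IV in this way. COL15A1 had an r of 0.18 with COL4A1 and -0.03 with COL4A2. LAMA4 ran against the collagen IV chains, with an r of -0.74 (rho -0.70) with COL4A2 and -0.57 (rho -0.53) with COL4A1. Among the 5369 other named genes, LAMA4 ranked 5255th by its r with COL4A2. The relation with COL4A2 shrank to -0.45 without male lines 4 and 5, so part of it rests on those lines. It was -0.64 without male line 4 alone. Male line 4 was the highest line for LAMA4 and the lowest for COL4A2, and its array had the ACTB ratio of 2.27. LAMA2 and COL15A1 also ran against each other (r = -0.62, rho -0.48). Without the lines farthest from the median, this r was -0.61 when chosen by COL15A1 (female lines 1 and 5) and -0.21 when chosen by LAMA2 (female line 1 and male line 5).

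Chains that join in the same laminin trimers were only loosely related. The beta 1 and gamma 1 chains, LAMB1 and LAMC1, had an r of 0.36 (rho 0.32), and LAMB1 ranked 622nd of 5369 genes by its r with LAMC1. This r was 0.65 without female line 2 and male line 4, the lines farthest from the median of LAMB1, and 0.02 without male lines 3 and 5, those farthest from the median of LAMC1, so it rests on few lines. LAMA4 had an r of 0.43 with LAMB1, which was 0.14 without male line 4, the highest line for both. With LAMC1, LAMA4 had 0.06 and LAMA2 0.00, and LAMA2 had -0.19 with LAMB1. Over all 21 pairs of members the median r was -0.03, from -0.74 to 0.87, and 10 pairs were positive.

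**Figure D3:**
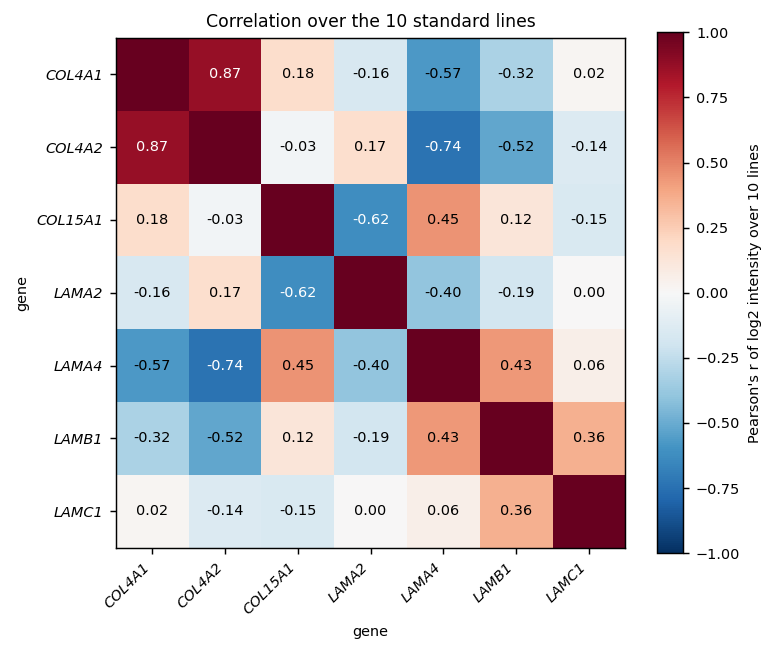
Pearson r of log2 intensity between each pair of the 7 genes over the 10 standard lines, from -1 (blue) to 1 (red). The COL4A1 and COL4A2 pair (0.87) stands highest, and LAMA4 is negative with both.

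The genes whose pattern over the 10 lines was most like that of each member, leaving out the other members, were then listed by Pearson r. For COL4A1 they were the chromatin reader gene BRD2 (r = 0.90), BTNL3 (0.90) and PIGA (0.89), which acts in the synthesis of membrane anchors. For COL4A2 they were PIGA (0.92), the translation initiation factor gene EIF4G1 (0.91) and COL6A1 (0.90), a chain of collagen VI. COL6A1 read 11526 to 23188 over the lines, and its r was 0.63 after quantile normalization. For COL15A1 they were ZNF207 (0.92), LSP1 (0.92) and the mitochondrial calcium uptake gene MICU2 (0.91). For LAMA2 they were the polycystin gene PKD1 (0.95), BCAP31 (0.95) and PML (0.94). LAMA4 was closest to TRRAP (0.92) and to the tubulin gene TUBB2B (0.92) and the tubulin folding cofactor gene TBCC (0.91). LAMB1 was closest to the bradykinin receptor gene BDKRB2 (0.87), YAF2 (0.86) and SUZ12 (0.86). BTNL3, LSP1, BDKRB2 and TBCC were above the floor in 6 to 8 of the 10 lines, and with a floor of 200 the r of BTNL3 was 0.47 and that of TBCC 0.55. Without the 2 lines farthest from the median of LAMB1, the r of YAF2 was 0.49. After quantile normalization the r of BCAP31 was 0.75. At their lowest over the 4 other settings, MICU2 and YAF2 stood at 0.70, and TUBB2B and BDKRB2 at 0.68.

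LAMC1 was closest to MFAP5 (0.90), a microfibril protein gene, to GAS1 (0.89), named for its expression in growth-arrested fibroblasts, and to MEN1 (0.81), whose r was 0.30 without the 2 lines farthest from the median of LAMC1. LAMC1 was also lower in most lines where mitosis genes were high. Its r with the mean log2 intensity of 20 mitosis genes was -0.75 (rho -0.87). It was -0.86 without female lines 1 and 3, the lines farthest from the median of the mitosis list, and -0.78 without male line 4. Female line 1 had the lowest mitosis level, with 11 of 20 genes above the floor, and the highest LAMC1 (3296). Male line 3, with all 20 above the floor, had the lowest LAMC1 (1341). Female line 3, with the highest mitosis level, lay in the middle for LAMC1 (2306). The mitosis genes also leaned towards males, with 18 of 19 tested genes at a positive sex estimate and a median of 0.84. Over all 7333 probe sets, 3714 had a positive estimate. By limma, 0 of the mitosis genes were called and 4 had an unadjusted p under 0.05, against 2.33% of all probe sets. Whether these genes vary separately across lines was not tested, so the count cannot be read as 18 independent results. LAMC1 had a lower estimate in males and most mitosis genes a higher one, and their part in each other was not tested. Of the other members, the r with the mitosis level ran from -0.37 for LAMA2 to 0.33 for COL15A1.

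In all, 56 relations of the 7 members with 7 marker or mitosis levels and with the ACTB 3' to 5' ratio were computed. The largest in size was that of LAMA2 with the keratinocyte and epithelial markers (r = -0.90, rho -0.90, and -0.82 without female line 1 and male line 4). Those markers were near the floor, with 2 of 11 above it in all cultures, and their sums were 2080 to 2807 in male lines and 1721 to 2840 in female lines. The part of these markers in the spread of LAMA2 was not tested.

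**Figure D4:**
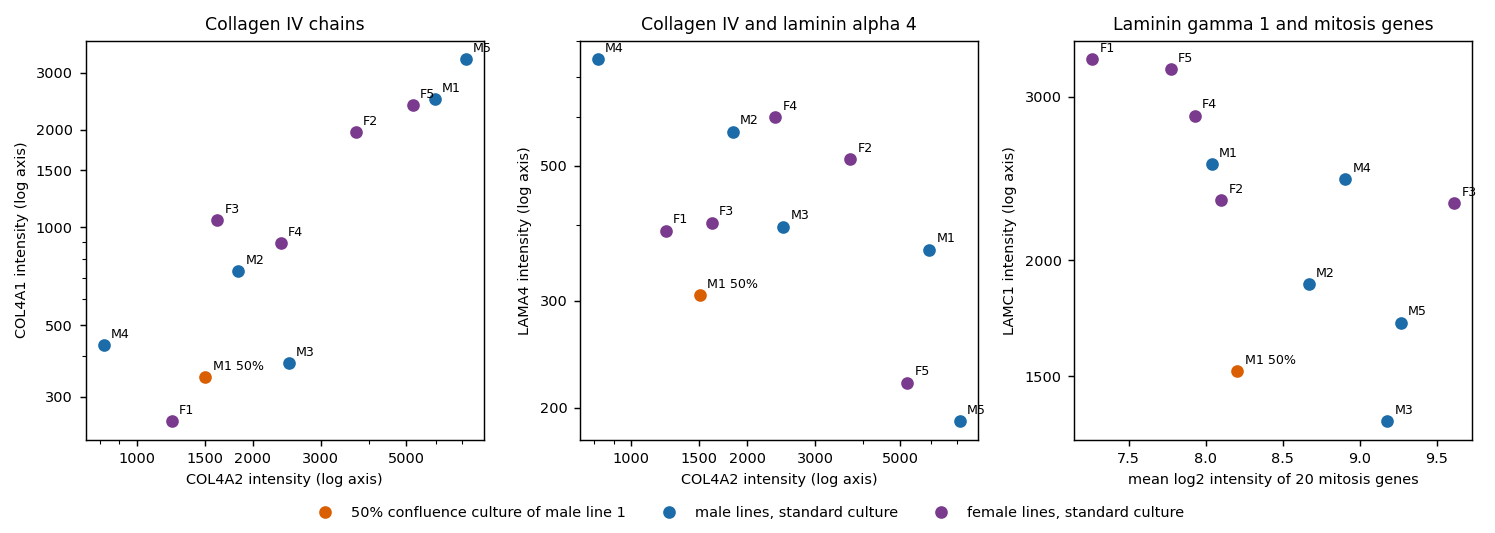
Left, COL4A1 against COL4A2 intensity; middle, LAMA4 against COL4A2 intensity, all on log axes; right, LAMC1 intensity (log axis) against the mean log2 intensity of 20 mitosis genes. Each point is 1 culture (M male, F female, orange the 50% confluence culture of male line 1). COL4A1 runs with COL4A2, and LAMA4 is lowest where COL4A2 is highest. LAMC1 is highest in female line 1, which has the lowest mitosis level, and lowest in male line 3, followed by the 50% confluence culture.

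The last comparison set the culture of male line 1 harvested at 50% confluence against the standard culture of the same line. How far the standard culture had grown is not given, so the values below compare these 2 cultures and not 2 known densities. Both collagen IV genes read lower in the 50% confluence culture. COL4A1 read 346 at 50% confluence against 2491 in the standard culture, 7.20-fold lower, and COL4A2 read 1506 at 50% confluence against 5943 in the standard culture, 3.95-fold lower. The log2 differences, -2.85 and -1.98, ranked 5th and 24th from the lowest among 6028 probe sets above the floor in both cultures. There was 1 array per state, so these differences have no replicate check and no test. They can be set against the spread between lines: 6 of 45 pairs of standard lines differed more than this in COL4A1, and 8 of 45 in COL4A2.

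The remaining members differed by less than 2-fold. COL15A1 read 2466 at 50% confluence against 4215 in the standard culture, 1.71-fold lower, and 34 of 45 pairs of lines differed by more. LAMC1 read 1518 at 50% confluence against 2541 in the standard culture, a log2 difference of -0.74, which 11 of 45 line pairs exceeded. LAMB1 read 277 at 50% confluence against 414 in the standard culture, a log2 difference of -0.58, which 13 of 45 line pairs exceeded. These laminin chains, like collagen IV, were thus lower at 50% confluence, by smaller amounts. LAMA4 was close in both cultures, at 306 at 50% confluence against 364 in the standard culture. LAMA2 alone was higher at 50% confluence, with 1518 against 998 in the standard culture, 1.52-fold, and 25 of 45 line pairs differed by more. Thus 2 of the 7 were over 2-fold lower, against 4.83% of all probe sets, and 0 were over 2-fold higher, against 4.98%, which makes 2 over 2-fold either way, against 9.8%. The 2 are the collagen IV genes, which also ran together across lines, so the count cannot be read as 2 independent results. In all, 6 of the 7 were lower, against 49.4% of all probe sets, and 1 was higher, against 50.3%. The standard culture compared here was itself high among the 10 lines for most members. It was the highest for COL15A1, 2nd for COL4A1, COL4A2 and LAMB1, 3rd for LAMA2, 4th for LAMC1 and 8th for LAMA4. The part of this starting level in the count was not tested. The median log2 difference of the 7 genes was -0.74, against 0.00 for all. All 7 stayed inside the range spanned by the 10 standard lines, which 17.3% of all probe sets left. COL4A1 at 50% confluence stood above female line 1 alone. The ribosomal RNA controls were also highest on the array of the 50% confluence culture, and their part in these differences was not tested. The lowest deposited value also differed, at 90 for the 50% confluence culture and 100 for the standard culture. Of the 8 smooth muscle and pericyte markers above the floor in both cultures, 1 was over 2-fold lower at 50% confluence (NOTCH3, 480 at 50% confluence against 2223 in the standard culture) and 2 over 2-fold higher (MYH11, 3997 at 50% confluence against 874 in the standard culture, and CNN1, 1154 at 50% confluence against 362 in the standard culture), with a list sum of 40166 at 50% confluence and 42129 in the standard culture. For NOTCH3, male line 1 was the highest of the standard lines. The mitosis genes had a median log2 difference of 0.06, with 8 lower and 9 higher. The part of these genes in the collagen IV difference was not tested.

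Partner genes of the basement membrane were followed in the same 2 cultures. Of 6 other basement membrane collagens measured, 2 exceeded the floor often enough to be tested. COL18A1, the source of endostatin, read 154 at 50% confluence against 327 in the standard culture, the highest value of the standard lines. COL7A1, the anchoring fibril collagen, read 214 at 50% confluence against 337 in the standard culture. With a floor of 200, COL18A1 stood at -0.71 and was no longer over 2-fold lower. The other collagen IV chains gave little signal, with COL4A3, COL4A4 and COL4A5 above the floor on at most 2 of 11 arrays and COL4A6 on 0. Of 4 other laminin chains on the array, LAMB2 read 1830 at 50% confluence against 1611 in the standard culture, LAMA5 was above the floor in 5 cultures, and LAMA1 and LAMB3 were above it in 1 and 4.

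Among 8 linkers and associated glycoproteins, 6 were lower and 2 higher, with a median log2 difference of -0.55. The nidogen gene NID1, whose product joins laminin gamma 1 to collagen IV, read 208 at 50% confluence against 721 in the standard culture, 3.47-fold lower and below all 10 standard lines (475 to 847). NID2 read 418 at 50% confluence against 698 in the standard culture. FBLN1, a fibulin gene, read 214 at 50% confluence against 622 in the standard culture, also below the 326 to 1083 of the standard lines, but a second probe set read 258 at 50% confluence against 274 in the standard culture. HSPG2, which encodes perlecan, went the other way, with 5930 at 50% confluence against 3415 in the standard culture, above the 1906 to 4284 of the standard lines.

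Of 9 receptor genes, 6 were higher and 3 lower, against 50.3% of all probe sets higher, with a median of 0.19 and 0 over 2-fold either way. ITGB1, the beta 1 chain of the collagen and laminin integrins, read 9020 at 50% confluence against 6088 in the standard culture, the lowest value of the standard lines. ITGA6, a laminin receptor chain, read 292 at 50% confluence against 162 in the standard culture, and ITGA1, a collagen receptor chain, 395 at 50% confluence against 268 in the standard culture. The log2 differences of the other probe sets of these 3 genes ran from -0.33 to 0.24. Those of ITGB1 and ITGA6 read between 100 and 126 in both cultures, too near the floor to show a difference either way. That of ITGA1 read 238 at 50% confluence against 250 in the standard culture. The proteoglycan receptor gene SDC2 read 247 at 50% confluence against 299 in the standard culture.

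Collagen folding genes were evenly split, with 5 of 10 higher and a median of -0.06. The prolyl hydroxylase gene P4HA2 was over 2-fold higher, with 2695 at 50% confluence against 1234 in the standard culture. The collagen chaperone gene SERPINH1 was lower, with 15580 at 50% confluence against 25580 in the standard culture, the highest value of the standard lines. Its other probe sets differed less, with 1197 at 50% confluence against 1465, and 100 at 50% confluence against 121. P4HB read 9832 at 50% confluence against 11654 in the standard culture, and another probe set of P4HB went the other way, with 6330 at 50% confluence against 3987 in the standard culture. PPIB read 5123 at 50% confluence against 6187 in the standard culture. Among 8 breakdown genes, 2 were over 2-fold lower. The membrane-bound protease gene MMP14 read 1378 at 50% confluence against 3682 in the standard culture, and its second probe set 348 at 50% confluence against 1298 in the standard culture. The stromelysin gene MMP3 read 109 at 50% confluence against 239 in the standard culture, and its log2 difference was -0.26 with a floor of 200. The inhibitor gene TIMP2 read 4621 at 50% confluence against 2612 in the standard culture, but its second probe set read 700 at 50% confluence against 639. TIMP3 read 13262 at 50% confluence against 7667 in the standard culture, above all 10 standard lines, and its second probe set was also higher, with 10358 at 50% confluence against 4988 in the standard culture.

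**Figure D5:**
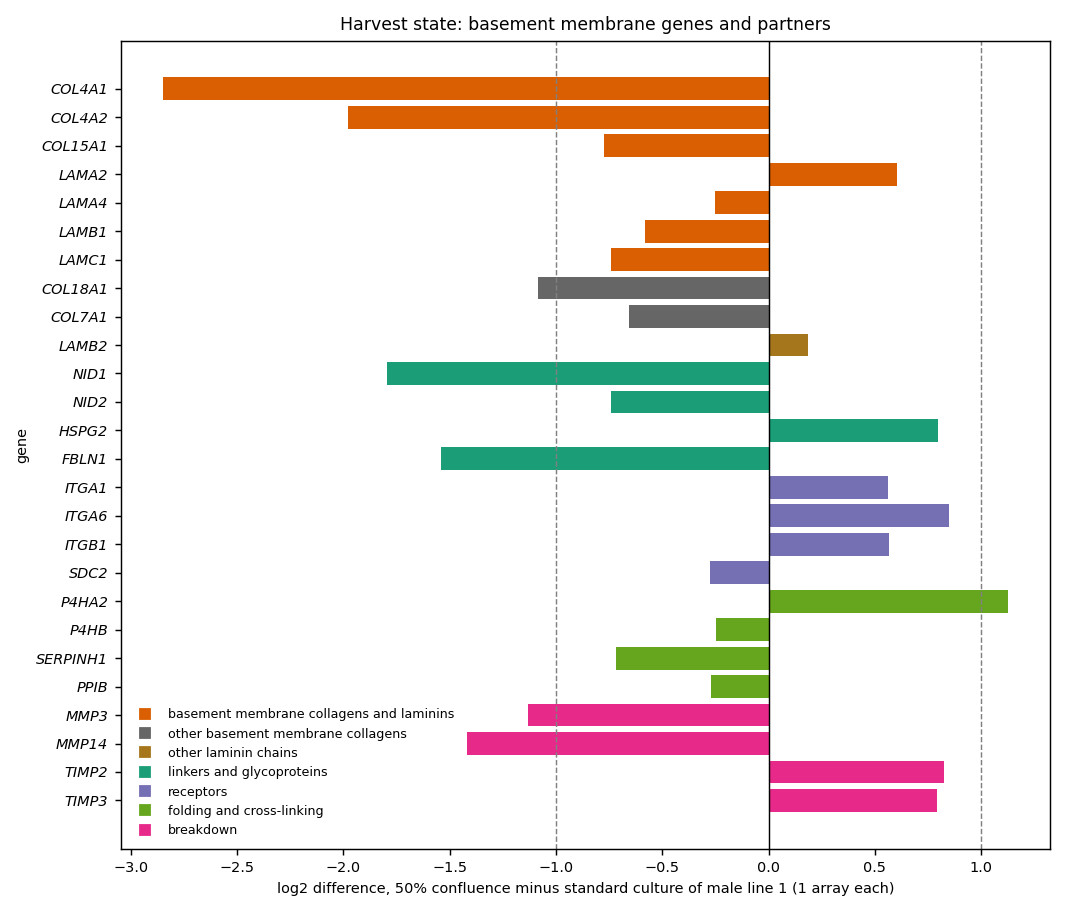
Bars give the log2 difference, 50% confluence minus standard culture of male line 1, for the 7 genes and for up to 4 partner genes per list with the largest difference among those above the floor in both cultures; dashed lines mark 2-fold. COL4A1, COL4A2, NID1 and FBLN1 reach farthest below 0, and P4HA2 farthest above it; each culture is 1 array.

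Between the standard lines, the partner genes could be set beside the members in the same descriptive way. COL7A1 had an r of 0.71 with both COL4A1 and COL4A2 over the 10 lines and ran from 164 in female line 1 to 1682 in male line 5. COL18A1, the other collagen tested, had an r of 0.46 with COL4A1 and 0.35 with COL4A2. TIMP3 had an r of 0.75 with COL4A1 and 0.80 with COL4A2, and ran from 960 in female line 1 to 11053 in female line 5. NID1 had an r of 0.24 with COL4A1 and 0.22 with LAMC1, and an SD of 0.30. LAMB2, the beta 2 chain that can replace beta 1, had an r of 0.81 with LAMA2 and -0.66 with LAMA4. Its levels ran from 760 in male line 4 to 2076 in female line 1, the line that was also highest for LAMA2. These genes were taken from longer lists, in which r varied widely. With COL4A1, the 8 breakdown genes had a median r of -0.005, from -0.33 for MMP3 to 0.81 for TIMP1. With COL4A2, the same 8 genes had a median r of 0.15, from -0.02 to 0.80. With LAMA2, the 10 receptors had a median r of 0.12, from -0.87 for ITGB1 to 0.49. Among all 5369 named genes the median r with each member lay between -0.10 and 0.06.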

How the data were processed

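Intensities, as deposited, were linear and whole numbers, and covered 12625 probe sets in 11 cultures, with 1 human Affymetrix array each. The sources used here do not say how the authors summarised, scaled and floored them. The lowest deposited intensity was 100 on 9 arrays and 90 on 2, those of male line 5 and of the 50% confluence culture. Here values were floored at 100 and log2 was taken, 67 control probe sets were left out, and the 7333 of 12558 probe sets above 100 in at least 5 of 11 arrays were tested. Gene symbols came from the platform annotation, in which 10943 probe sets carried 1 symbol, 545 more than 1 and 1070 no symbol. A gene with more than 1 probe set was represented by the brightest on average, giving 5370 genes. All 7 members were found in the bonobo gene table (assembly NHGRI_mPanPan1-v2.0_pri), used for names and neighbours. The probes follow human sequence, so mismatches to bonobo can lower a signal and levels of different genes were not compared.

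Sex and age, and in a further fit their product, were fitted over the 10 standard lines with lmFit and a trended eBayes (limma 3.58.1, R 4.3.3). The lines were numbered in accession order, which pairs nothing. Adjusted p is Benjamini-Hochberg over all 7333 probe sets, two-sided. The fits were tested on simulated data. P-values measure the spread between lines. The number of arrays limits the precision. The members and gene lists were chosen with earlier results of these data known. Named genes were all members, the 3 genes of highest r with each, genes of the lists past the threshold, and the up to 4 of each list with the largest harvest difference or up to 2 with the largest SD, of which the text gives those that bear on the members. Alternatives were quantile normalization, median centring, a floor of 200, a pseudocount of 50, other filters, variance models and covariates, and leaving out each line.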

Additional observations from a re-analysis of the deposited data

Results flagged for a closer look

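In 2 of 21 groups of values examined (each gene in male lines, female lines and all standard lines), a line stood far from the others on the log2 scale by Dixon's criterion. Chance alone flags about 1 in 20 such groups. LAMA2 read 2119 in female line 1, against 426 to 637 in the other female lines. LAMB1 read 218 in female line 2, against 345 to 405 in the other female lines.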

How the results depend on the processing

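No member was called for sex, age or their product in any setting or without any line, the 2 collagen IV genes were the members over 2-fold lower at 50% confluence in all 4 other settings, and the r of COL4A1 with COL4A2 was 0.87 in each of those, and 0.83 to 0.93 without single lines. The median SD of the 7 genes ran from 0.67 to 0.77, and from 0.66 to 0.75 without single lines. For uncalled estimates, direction depended on single lines. Sex estimates without 1 line ran from -0.54 to 0.32 for COL4A1, -0.21 to 0.68 for COL4A2, -0.26 to 0.83 for COL15A1 and -0.26 to 0.30 for LAMA4. Age slopes ran from -0.30 to 0.36 for COL4A1, -0.14 to 0.45 for COL4A2 and -0.12 to 0.16 for LAMA2. Slope differences ran from -1.36 to 0.50 for COL4A1, -1.45 to 0.28 for COL4A2, -0.44 to 1.57 for COL15A1, -0.62 to 0.20 for LAMA2 and -0.54 to 0.51 for LAMA4. With array weights the sex estimates of COL15A1 (-0.13) and LAMA4 (-0.12) reversed; the cause was not tested. Over all probe sets, calls for sex ran from 0 (probe sets above 100 on all 11 arrays) to 3 (array weights, no intensity trend, or no age term) against 2, calls for age from 0 to 1 (all probe sets) against 0, and calls for the slope difference from 0 to 1 against 1. The planned check on other probe sets of the members was not run, since each has 1. No paired analysis was possible because the line numbers only follow accession order.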
